A study of Mus musculus with 16 samples.

Results

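Expression was compared between innate-like and conventional T cells on 12 of the 16 single-colour oligonucleotide arrays of the series, after leaving out its 4 B cell arrays. The 12 arrays form 2 pairs of groups with 3 replicates each, and the members were every array labelled NKT, CD4T, CD8aaT or CD8abT. The series is titled for innate and adaptive lymphocytes, and the question read from it here was which genes differ in the same direction in both T cell pairs.

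The first pair came from wild-type C57BL/6 mouse spleen. NKT cells were sorted as CD3+CD4+NK1.1+ and CD4T cells as CD3+CD4+NK1.1-, at about 100000 cells a sample. The second pair came from a culture that the labels call RTOC, with about 50000 cells a sample and no strain given. CD8aaT cells were sorted there as TCRb+CD8a+CD8b- after a high dose of the agonist Smcy, written as 10 mM, and CD8abT cells as TCRb+CD8a+CD8b+ after a low dose, written as 100 nM. The unit of the high dose may be a slip, which could not be settled. In the RTOC pair the dose and the lineage are the same factor and cannot be told apart. The replicates are called biological, but whether animals or sorts were separate is not said. The p-values therefore cover only the spread among these 12 arrays, which may in part be technical. Because the samples are bulk populations, fewer cells of a type and less RNA per cell cannot be told apart.

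Innate-like T cells are selected in the thymus by strong agonist signals and leave it already in an effector-like state, whereas conventional T cells leave it naive and recirculate through lymph nodes. Natural killer T cells recognise lipids, and CD8αα T cells home mainly to the gut epithelium. Both are known for receptors of the natural killer lineage, rapid cytokine and chemokine release, and the Id2 protein, which holds the E-protein transcription factors off DNA.

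In both kinds of innate-like T cell, the chemokine gene Ccl5, the receptor gene Klrd1 and the inhibitor gene Id2 were about 5 to 8 times as bright as in their conventional partners on average, with the adaptor gene Tyrobp and the costimulatory receptor gene Tnfrsf18 also higher. Socs3, Il6ra, Ccr7 and Cd5, which belong to IL-6 signalling, lymph node homing and T cell receptor restraint, were lower in both. In the CD8 pair alone Il6ra and Ccr7 were not called. All differences below are log2 of the deposited intensity in innate-like minus conventional cells, and the average is the mean of the NKT and CD8aaT differences, fitted with the replicate number within each pair as a block. The average was called (limma, Benjamini-Hochberg adjusted p under 0.05) for 399 of 12422 probe sets in the higher direction, 3.21%, and for 119 in the lower direction, 0.958%. Probe sets were counted as having moved alike when the average was called, all 6 same-numbered differences had its sign and the test of the difference between the pairs was not called. There were 237 such probe sets higher (1.91%) and 67 lower (0.539%), for 210 and 58 genes with a single symbol. A pair difference that was not called does not show equal size in both pairs. The remaining called probe sets were 173 without the same sign in all 6 differences and 41 whose pairs differed by the test.

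Each pair alone gave different numbers. NKT minus CD4T called 320 higher (2.58%) and 174 lower (1.4%), and CD8aaT minus CD8abT called 131 higher (1.05%) and 30 lower (0.242%). The test of the difference between the pairs called 269 probe sets (2.17%). Of the 304 that moved alike, 39 were called in both pairs, 121 in the NKT pair alone, 26 in the CD8 pair alone and 118 in neither, so these last rest on the average. The smallest average among the 304 was 0.30 in size, and the medians were 0.60 for those higher and -0.52 for those lower, beside -0.04 over all probe sets. Among the 304, both groups of both pairs were free of overlap for 94 probe sets (30.9%), beside 159 (1.28%) of all probe sets with such separation in one direction. The rule asked for 6 differences of 1 sign, so that share is a description.

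**Figure D1:**
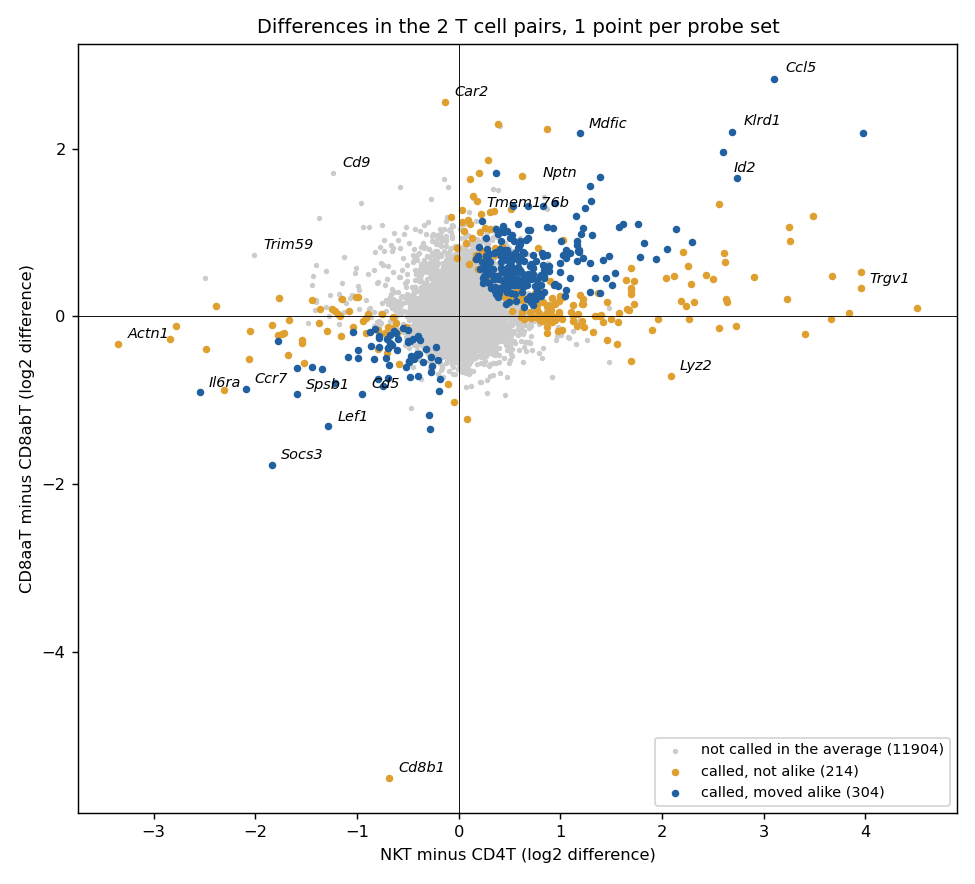
Log2 difference NKT minus CD4T (horizontal) against CD8aaT minus CD8abT (vertical), 1 point per probe set, with the 304 that moved alike in blue, other called probe sets in orange and the rest in grey. Ccl5, Klrd1 and Id2 lie far up and to the right (3.10 and 2.84 for Ccl5), Socs3 down and to the left (-1.83 and -1.77), and Cd8b1, a gate gene, is far below 0 on the vertical axis alone.

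Control signals on the arrays moved with part of these differences. The 3′ to 5′ Gapdh ratio, which rises with RNA that is short or degraded, was lower in the innate-like array of all 6 same-numbered pairs, from 5.11 to 6.15 in NKT against 5.83 to 8.48 in CD4T and from 7.37 to 20.9 in CD8aaT against 9.47 to 30.4 in CD8abT. The 18S ribosomal control was 675, 52.7 and 56.3 in NKT replicates 1 to 3 against 1326, 59.2 and 54.4 in CD4T, and 66.5, 273 and 249 in CD8aaT against 129, 857 and 716 in CD8abT. With the 18S signal as a covariate, an alternative chosen after seeing the data, 15 probe sets were called higher and 9 lower, and 5 and 4 moved alike; the average kept its sign for 277 of the 304. With the Gapdh ratio, also chosen after seeing the data, the calls were 33 higher and 9 lower, 5 and 2 moved alike, and all 304 kept their sign. With the beta-actin ratio they were 80 and 26, and 28 and 14 moved alike. The median SE of the average over all probe sets was 0.0855 without a covariate and 0.188, 0.155 and 0.135 with the 3 in turn. Without the replicate block the average called 93 higher and 37 lower.

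Genes of the sorting gates were read first. Cd8b1, which encodes the CD8 beta chain, was at 1043, 2324 and 2704 on the CD8abT arrays and at 31.7, 49.3 and 44.5 on the CD8aaT arrays, a difference of -5.51. For the NK1.1 family, the probe set that Klrb1b shares with Klrb1c read 696, 879 and 905 in NKT cells and 71.3, 65.6 and 57.7 in CD4T cells, a difference of 3.67. These match the labels of the groups. Cd4 was lower in NKT than in CD4T cells by -0.64 (limma, adjusted p = 0.022), though both were sorted as CD4+, and it moved alike. Cd8a was lower in CD8aaT than in CD8abT cells by -0.80 (limma, adjusted p = 0.016), though both were sorted as CD8a+. Cd3e, Cd3d and Cd3g were not called in the average. Gate genes were left out of the genes named by rule.

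Ccl5, the chemokine RANTES stored by effector and memory T cells, had the largest average rise of any gene with a single symbol. Its intensity was 2876, 2406 and 2424 in NKT replicates 1 to 3 and 226, 333 and 351 in CD4T cells, and 1411, 1126 and 861 in CD8aaT against 65.1, 194 and 299 in CD8abT cells. No innate-like array fell within the range of its conventional group. The average was 2.97 ± 0.30 (SE; limma, adjusted p = 0.00071), a 7.83-fold higher intensity, with 3.10 in the NKT pair and 2.84 in the CD8 pair. The same-numbered CD8 differences ranged from 1.53 in replicate 3 to 4.44 in replicate 1. With the 18S covariate the average was 3.40 at an adjusted p of 0.17, and with the Gapdh ratio 3.19 at 0.10.

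Xcl1, lymphotactin, which draws cross-presenting dendritic cells, was the only other of 10 chemokines that passed, and both moved alike. It read 185, 95.4 and 71.9 in NKT and 49.3, 46.6 and 43.4 in CD4T cells, and 68.7, 80.5 and 138 in CD8aaT and 53.9, 41.4 and 80.1 in CD8abT cells, with an average of 0.96 ± 0.15 (SE; limma, adjusted p = 0.0061). The CD8 groups overlapped, since replicate 3 of CD8abT was above replicate 1 of CD8aaT. Ccl3 (0.33), Ccl4 (0.06) and Cxcl10 (0.45) did not pass, and the list's median was 0.08. This and the later list counts stand beside 3.21% of all probe sets called higher and 0.958% called lower.

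Klrd1 encodes CD94, which pairs with NKG2 proteins to read a non-classical MHC molecule. Its intensity was 930, 518 and 580 in NKT and 134, 86.6 and 89.6 in CD4T cells, and 566, 599 and 865 in CD8aaT and 72.2, 153 and 271 in CD8abT cells. Groups were apart in both pairs, and CD8abT replicate 3 was the highest of its group. The average was 2.45 ± 0.15 (SE; limma, adjusted p = 3.3e-05), with 2.69 and 2.20 in the pairs. It stayed called under all 19 alternatives, at 2.83 with the 18S covariate.

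Tyrobp encodes DAP12, the adaptor through which several natural killer receptors signal. It was dimmer, at 164, 101 and 104 in NKT and 53.8, 25.3 and 32.1 in CD4T cells, and 42.3, 74 and 76.7 in CD8aaT and 17.7, 40.2 and 34.1 in CD8abT cells. The CD8 groups were apart by a narrow gap, between 40.2 and 42.3. The average was 1.43 ± 0.08 (SE; limma, adjusted p = 3.1e-05), it stayed called under all 19 alternatives, and the pairs gave 1.76 and 1.10.

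Of 17 natural killer receptors and adaptors measured, 7 rose in the average and 0 fell, with a median of 0.31. Besides Klrd1 and Tyrobp, Klrb1b moved alike, but it belongs to the family of the gate antigen. The other called members differed between the pairs by the test. Klrk1, the NKG2D receptor, averaged 1.18 from 2.18 in NKT and 0.18 in CD8aaT, and Klra3, a Ly49 receptor, 1.18 from 2.24 and 0.12. Cd244a, the 2B4 receptor, was larger in the CD8 pair, with 0.39 in NKT and 2.30 in CD8aaT. Cd244a read 78.8, 53.8 and 73.6 on the CD8aaT arrays against 14, 15.8 and 11.8 on the CD8abT arrays. Fcer1g, another adaptor, averaged 0.26 by its brightest probe set, which did not pass, while its dimmer probe set averaged 0.34 (limma, adjusted p = 0.040) and moved alike. With the 18S covariate 3 of the 17 were called higher.

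**Figure D2:**
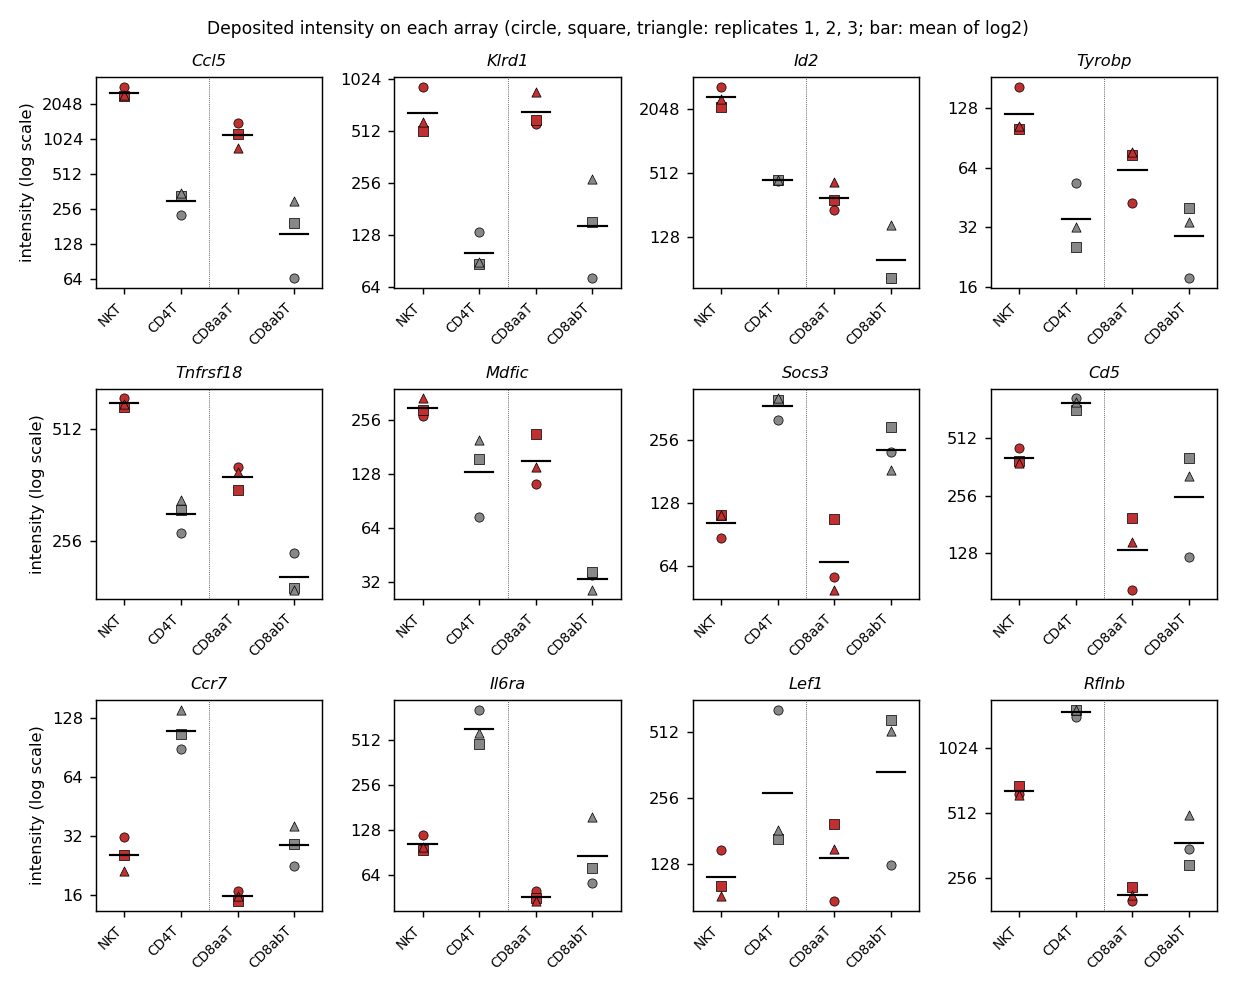
Deposited intensity (log axis) of 12 genes that moved alike on every array, red for innate-like and grey for conventional groups, with the bar at the mean of the log2 values. Ccl5, Klrd1 and Id2 are free of overlap in both pairs, while Cd5 and Lef1 overlap in the CD8 pair, where replicate 1 of CD8abT is low.

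Among 12 cytotoxic effectors, 4 passed, all higher, with a list median of 0.35. Srgn, serglycin, the proteoglycan that packs granule proteins, moved alike with 0.73 ± 0.13 (SE; limma, adjusted p = 0.016), and its pair differences were 0.60 and 0.86. Fasl, the Fas ligand, reached 963, 620 and 599 in NKT against 117, 82.4 and 87.8 in CD4T cells, but only 19.1, 23 and 23.9 against 15.4, 15.1 and 17.1 in the CD8 pair. Its difference of 2.91 in NKT and 0.47 in CD8aaT set the pairs apart by the test. Ctsw, cathepsin W, differed likewise, with 2.62 and 0.65. Gzma, granzyme A, averaged 0.50 with 5 of 6 differences above 0. Perforin (Prf1, 0.24) and granzyme B (Gzmb, 0.36) did not pass.

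Id2, an inhibitor of E proteins that innate lymphocyte lineages need, was at 3343, 2171 and 2572 in NKT and 433, 440 and 443 in CD4T cells. In the CD8 pair it was at 227, 283 and 419 in CD8aaT and 52.5, 52.1 and 165 in CD8abT cells. Groups were apart in both pairs, and the CD4T arrays lay within 10 intensity units of each other. The average was 2.28 ± 0.14 (SE; limma, adjusted p = 3.4e-05), 4.86-fold, with 2.60 and 1.97 in the pairs. With the 18S covariate it was 2.01 at an adjusted p of 0.082.

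Id3, another inhibitor of this family, fell. It read 83, 82 and 77.5 in NKT and 181, 121 and 124 in CD4T cells, and 120, 131 and 164 in CD8aaT and 139, 148 and 215 in CD8abT cells. Id3 averaged -0.52 ± 0.09 (SE; limma, adjusted p = 0.011), moved alike, and its CD8 groups overlapped. Tcf4, the E protein E2-2, rose by 0.57 ± 0.09 in the average from low intensities, 14, 14.4 and 17 in CD8aaT and 8.02, 11 and 12.8 in CD8abT. Of the 7 Id and E proteins measured, these 3 passed, and the list's median was -0.11.

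Promoters of the leading genes that rose are shown because Id2 acts on proteins that bind the E box, CANNTG, so the windows let those letters be seen beside the values. RefSeq windows of assembly GRCm38.p6, 300 bases each and reaching just past the start of the gene, were found for 22 of the 30 leading genes that moved alike. They held Id2, Nptn, Mdfic and Tmem176b of the leading 6, and not Ccl5 or Klrd1. The windows are 5′ to 3′ on the gene's strand, with each E box in capitals, at chr12:25096043-25096342 (minus strand) for Id2, chr9:58581990-58582289 (plus) for Nptn, chr6:15720411-15720710 (plus) for Mdfic and chr6:48841088-48841387 (minus) for Tmem176b, the first of its 3 windows.
Id2: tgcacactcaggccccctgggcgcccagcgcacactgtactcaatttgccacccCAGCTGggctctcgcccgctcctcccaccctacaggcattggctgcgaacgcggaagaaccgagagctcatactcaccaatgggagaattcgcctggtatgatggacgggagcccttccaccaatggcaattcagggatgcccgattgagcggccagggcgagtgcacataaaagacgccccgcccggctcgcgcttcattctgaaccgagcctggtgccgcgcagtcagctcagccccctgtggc
Nptn: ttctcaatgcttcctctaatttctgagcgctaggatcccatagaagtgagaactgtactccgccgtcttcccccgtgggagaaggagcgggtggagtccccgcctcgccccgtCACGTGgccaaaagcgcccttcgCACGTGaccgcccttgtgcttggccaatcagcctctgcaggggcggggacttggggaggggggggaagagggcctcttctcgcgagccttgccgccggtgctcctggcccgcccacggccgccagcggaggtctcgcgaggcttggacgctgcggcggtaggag
Mdfic: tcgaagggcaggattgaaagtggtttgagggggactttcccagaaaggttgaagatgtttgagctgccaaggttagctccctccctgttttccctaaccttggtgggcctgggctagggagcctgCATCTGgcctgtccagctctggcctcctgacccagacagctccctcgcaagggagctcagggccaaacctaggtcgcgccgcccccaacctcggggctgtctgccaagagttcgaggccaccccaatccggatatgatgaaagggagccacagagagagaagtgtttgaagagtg
Tmem176b: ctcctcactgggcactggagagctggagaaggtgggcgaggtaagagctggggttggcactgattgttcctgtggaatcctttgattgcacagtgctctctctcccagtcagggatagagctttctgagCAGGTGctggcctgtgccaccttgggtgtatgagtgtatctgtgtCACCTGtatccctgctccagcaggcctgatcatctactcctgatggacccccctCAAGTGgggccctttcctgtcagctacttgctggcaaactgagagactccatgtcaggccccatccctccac
The Id2 window held 1 E box, Nptn 2, Mdfic 1 and Tmem176b 3. Searched on both strands, CANNTG was in 72.3% of all 32851 windows of the table, in 64.7% of 6576 first windows of genes on the array, and in 59.5% of 163 first windows of genes that rose alike and 59.6% of 47 of those that fell. The T-box motif TCACACC was in 3.98% of all windows, 3.42% of first windows of genes on the array, 5.52% of those that rose and 6.38% of those that fell. The Runx motif TGTGGT was in 16.8%, 12.9%, 15.3% and 8.51% of the same windows. None of the 4 printed windows held either. A match is a run of letters only.

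Of 13 effector and innate-lineage transcription factors, 5 rose in the average and 0 fell, with a median of 0.10. Gata3, a regulator of T cell development and type 2 cytokines, moved alike at 0.80 ± 0.10 (SE; limma, adjusted p = 0.002), with 0.86 and 0.74 in the pairs. Rora, which innate lymphoid cells need, rose by 1.65 in NKT cells and had a CD8aaT difference of 0.09, while its dimmer probe set averaged -0.15 and was not called. Bhlhe40, a stress-responsive repressor, averaged 1.43 from 2.26 and 0.61, and the pairs differed. Prdm1, which encodes Blimp-1, averaged 0.55. Zbtb16, which encodes PLZF, the factor known for directing NKT development, averaged -0.06 by its brightest probe set, which did not pass. Its other probe set averaged 1.72 (limma, adjusted p = 0.00041), with 3.23 in the NKT pair and 0.21 in the CD8 pair, and the pairs differed by the test. Protein levels were not measured.

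Tnfrsf18 encodes GITR, a costimulatory receptor, and read 622, 589 and 600 in NKT and 268, 309 and 330 in CD4T cells, and 405, 351 and 391 in CD8aaT and 237, 190 and 188 in CD8abT cells. Its groups were apart in both pairs, and 0.95 ± 0.08 (SE; limma, adjusted p = 0.00019) held 1.00 and 0.90. Nptn, neuroplastin, an adhesion protein of the immunoglobulin superfamily, averaged 1.42 ± 0.20 (SE; limma, adjusted p = 0.0047), but its NKT difference was 2.30 in replicate 1 and 0.63 in replicate 3. With the 18S covariate the Nptn average was 0.12, at an adjusted p of 0.86.

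Mdfic, a regulator of transcription factors with a MyoD family inhibitor domain, read 113, 216 and 141 in CD8aaT and 34.8, 36.1 and 28.9 in CD8abT cells. In NKT cells it was at 270, 290 and 339 and in CD4T cells at 73.1, 155 and 197, and the average was 1.69 ± 0.16 (SE; limma, adjusted p = 0.00041). Mdfic was more than 3 times as bright in each CD8aaT replicate as in its CD8abT partner. With the 18S covariate its average was 0.70 and did not pass.

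Lipid and sugar enzymes were among the other leading genes. St3gal6, a sialyltransferase that builds selectin ligands, averaged 1.59 ± 0.16 (SE; limma, adjusted p = 0.00071), with 2.13 and 1.04. Cerk, ceramide kinase, averaged 1.09 ± 0.13 (SE; limma, adjusted p = 0.0013), and Serinc3, a membrane protein of the serine incorporator family, 1.14 ± 0.16 (SE; limma, adjusted p = 0.0048). Rgs2, which shortens G protein signals, rose by 1.15 ± 0.12 and was called in both pairs. Lysmd2, a LysM domain protein, averaged 1.33 and was called in both pairs. Evi2a, a membrane protein gene lying within an Nf1 intron, averaged 1.14, and its other probe set gave 0.88; with the 18S covariate its average was 0.09. Tmem176b, a membrane protein of intracellular vesicles, rose by 1.18 ± 0.22, but no single pair was called and its CD8 value leans on replicate 2, 93.2, 499 and 111 in CD8aaT replicates 1 to 3. Leaving out any 1 of the 3 NKT and CD4T replicate pairs ended the Tmem176b call.

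**Figure D3:**
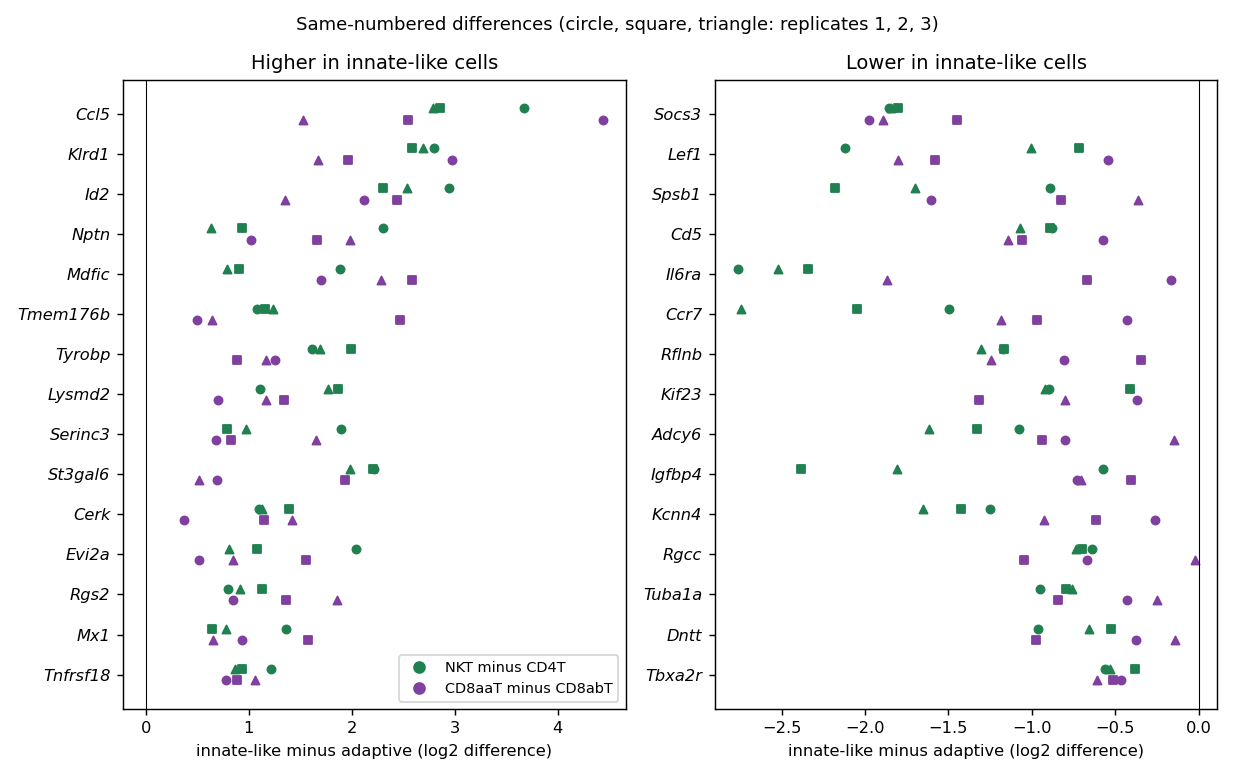
The 6 same-numbered log2 differences of each of the 30 leading genes that moved alike, green for NKT minus CD4T and purple for CD8aaT minus CD8abT. All points lie on the same side of 0 for each gene because the rule required it; Socs3, Cd5 and Tnfrsf18 have narrow ranges, and Ccl5 and Il6ra wide ones.

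Of 18 interferon-induced genes measured, 7 rose and all 7 moved alike, 0 fell, and all 18 averages were above 0, with a median of 0.38 (0.27 in the NKT pair and 0.48 in the CD8 pair). Mx1, an antiviral GTPase, read 73.5, 56.9 and 71.6 in NKT and 28.6, 36.5 and 41.7 in CD4T cells, and 31.8, 122 and 35 in CD8aaT and 16.6, 41 and 22.3 in CD8abT cells. Its CD8 groups overlapped, replicate 2 being the brightest in each, while every same-numbered difference was above 0, and the average was 0.99 ± 0.13 (SE; limma, adjusted p = 0.0032). Gbp3, a guanylate-binding protein, averaged 0.75 ± 0.16, Ifi47, an immunity-related GTPase, 0.70 ± 0.14, and Rsad2, viperin, 0.69 ± 0.14. Isg15 (0.41), Ifit1 (0.50) and Irf1 (0.56) were smaller. None of the 18 was called without the replicate block or with any of the 3 covariates, and 3 were called without NKT replicate 1.

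Socs3, the feedback inhibitor of STAT3 signals from receptors of the IL-6 type, had the largest average fall among genes that moved alike. It was at 87.3, 113 and 112 in NKT and 317, 393 and 402 in CD4T cells, and at 56.8, 108 and 49.7 in CD8aaT and 223, 294 and 184 in CD8abT cells. Groups were apart in both pairs. The average was -1.80 ± 0.08 (SE; limma, adjusted p = 1.2e-05), 3.49-fold lower, with -1.83 and -1.77, and its other probe set gave -0.72. Socs3 stayed called under all 19 alternatives.

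Il6ra, the ligand-binding chain of the IL-6 receptor, fell as well. It read 119, 94.5 and 99.3 in NKT and 809, 479 and 571 in CD4T cells, and 50.6, 45.4 and 43.1 in CD8aaT and 56.7, 72.2 and 157 in CD8abT cells, apart in both pairs. The average was -1.72 ± 0.18 (SE; limma, adjusted p = 0.00085), with -2.54 in the NKT pair and -0.90 in the CD8 pair, the latter not called on its own (limma, adjusted p = 0.12). The Il6ra average lost the call with the 18S, Gapdh or beta-actin covariate. Il6st, the shared signalling chain gp130, averaged -0.72 from -1.37 in NKT and -0.07 in CD8aaT, and did not move alike. A dimmer probe set of Il6st averaged -0.02 and was not called.

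Other cytokine receptors rose, so that 4 of 17 passed as higher and 2 as lower, with a median of 0.18. Il7r, the IL-7 receptor alpha chain, moved alike at 1.04 ± 0.20 (SE; limma, adjusted p = 0.022), though the sizes were 0.37 and 1.71. On the CD8 arrays it was at 251, 699 and 205 in CD8aaT and 129, 98.8 and 80.5 in CD8abT. Il18rap, a chain of the IL-18 receptor, averaged 0.79 and moved alike, with 1.29 and 0.29. Il12rb1 gave 1.37 and 0.28, and Kit, the stem cell factor receptor, 0.28 and 1.87.

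The rest of the SOCS and inhibitory receptor list was mixed, with 2 of 10 higher, 3 lower and a median of -0.01. Cd5 restrains signals of the T cell receptor. Its intensity was 453, 390 and 379 in NKT and 832, 722 and 796 in CD4T cells, and 82, 195 and 147 in CD8aaT and 122, 406 and 324 in CD8abT cells. The CD8 groups overlapped, with CD8abT replicate 1 below CD8aaT replicates 2 and 3, while the average was -0.94 ± 0.09 (SE; limma, adjusted p = 0.00046) and nearly equal in the pairs, -0.95 and -0.92. Socs2 rose by 1.68 in the average, from 2.61 in NKT and 0.75 in CD8aaT. Cd200 averaged -0.58, with -1.21 and 0.06. The neighbour of Cd5 on chromosome 19, Cd6, a related scavenger-type receptor, moved alike at -0.47 ± 0.11 (SE; limma, adjusted p = 0.045). This is 1 of 4 adjacent gene pairs in which both members moved alike in the same direction. The others were Cab39 and Itm2c, Vps26a and Srgn, and She and Il6ra. How many such pairs unrelated genes would give was not worked out, so the count is a description.

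Of 9 genes of naive cells and lymph node homing, 6 fell and 2 rose, and the median was -0.54. Ccr7, the receptor that brings naive cells into lymph nodes, was at 31.3, 25.5 and 21 in NKT and 88.1, 105 and 140 in CD4T cells, and at 16.7, 14.8 and 15.7 in CD8aaT and 22.4, 28.9 and 35.8 in CD8abT cells. The groups were apart in both pairs, at low intensities in the CD8 pair. The average was -1.48 ± 0.15 (SE; limma, adjusted p = 0.00079), from -2.09 and -0.86. The CD8 difference of Ccr7 was not called on its own (limma, adjusted p = 0.089). Its average lost the call with the 18S, Gapdh or beta-actin covariate. Satb1, a chromatin organiser of thymocytes, also moved alike at -0.54. S1pr1, Klf2 and Itga6 fell in the NKT pair by 1.36, 1.54 and 1.78, and their CD8 values were 0.09, -0.28 and -0.22; a dimmer probe set of S1pr1 averaged -0.29 and was not called. Lef1, a Wnt-pathway factor of naive T cells, differed between probe sets, with -1.29 ± 0.20 for the dimmer one, which moved alike, and -0.35 for the brighter one, which did not. With the 18S covariate the average of the dimmer probe set was -0.07, and 0 of the 9 genes were called lower.

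Other leading genes that fell have varied roles. Of the 15 leading genes that fell, 13 were called in the NKT pair and 4 in the CD8 pair, each by its own contrast. These 4, called in both pairs, were Socs3, Cd5, Rflnb and Tbxa2r. Kif23 and Rgcc were called in neither pair. Rflnb, a filamin-binding protein, fell to 629, 682 and 622 in NKT against 1420, 1529 and 1535 in CD4T cells, and to 200, 232 and 213 in CD8aaT against 350, 294 and 503 in CD8abT cells. Rflnb was apart in both pairs, and its average was -1.01 ± 0.11 (SE; limma, adjusted p = 0.0009). Kcnn4, a calcium-activated potassium channel, averaged -1.02 ± 0.10 (SE; limma, adjusted p = 0.00046), and Adcy6, an adenylate cyclase, -0.98 ± 0.12 (SE; limma, adjusted p = 0.0015). Spsb1, an adaptor with a SOCS box, averaged -1.26, and Igfbp4, which binds insulin-like growth factors, -1.10. The brighter probe set of Igfbp4 averaged -0.56 and moved alike, while the dimmest averaged -0.11 and was not called. The Igfbp4 call at -1.10 was lost under 6 of the 19 alternatives, among them the fit without NKT replicate 3. Kif23, a kinesin of cell division, averaged -0.79, and Tuba1a, an alpha tubulin, -0.67, though another probe set of Tuba1a gave -0.22 and was not called. Tbxa2r, the thromboxane receptor, fell by 0.51 with a narrow SE of 0.07 and was called in both pairs. Rgcc, a regulator of the cell cycle, averaged -0.63, and leaving out any 1 of the 3 NKT and CD4T replicate pairs ended its call.

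Dntt, the terminal transferase of immature lymphocytes, fell by -0.60 ± 0.11 in the average, from low intensities of 29.5, 45.8 and 27.5 in CD8abT and 22.8, 23.3 and 25 in CD8aaT cells. The call was lost without NKT replicate 1 or without NKT replicate 3, and of its other probe sets 1 moved alike at -0.49 and 1, at -0.29, was not called. Of 12 genes of double-positive thymocytes, 4 were lower and 0 higher, but Cd4 and Cd8b1 among them are gate genes, and the median was -0.26. Of 17 pan-T and T cell receptor signalling genes, 4 were lower and 0 higher. Besides Cd5 and Cd6, Cd247, the zeta chain, moved alike at -0.53 by its brighter probe set and averaged -0.01 by its dimmer one, while Cd2 gave 0.08 in the NKT pair and -1.22 in the CD8 pair. Nr4a1, a gene of recent antigen receptor signals, was the only one of 17 immediate-early genes that passed, at -0.33.

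**Figure D4:**
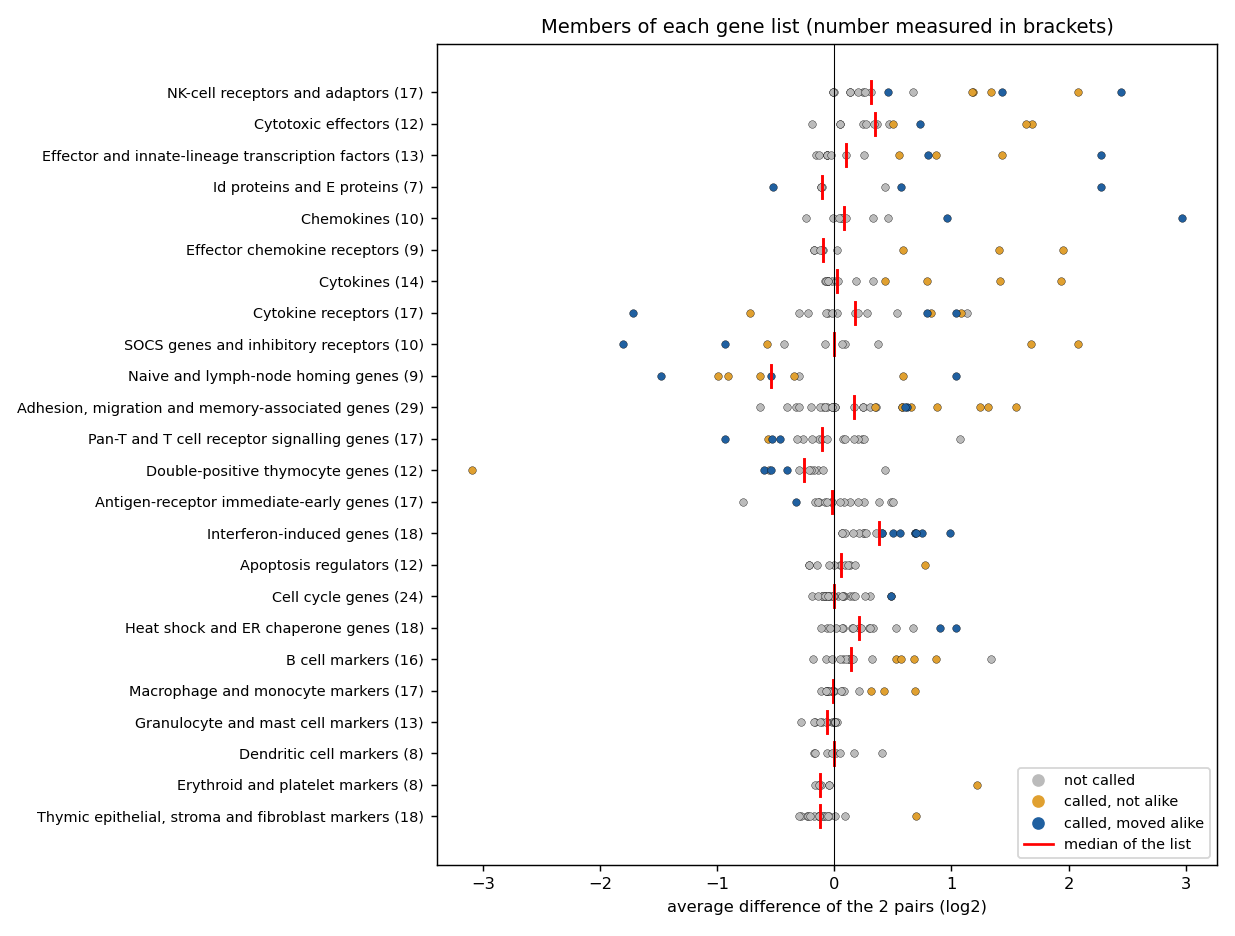
Average log2 difference of every measured member of 24 gene lists, blue for members that moved alike, orange for other called members, grey for the rest, with a red bar at each list's median. Interferon-induced genes lie to the right of 0 throughout (median 0.38), the naive and homing list lies mostly to the left (median -0.54), and most other lists are centred near 0 with a few far points.

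Effector cytokines and chemokine receptors were called in the average without moving alike. Il4 read 657, 299 and 276 in NKT and 32.9, 23 and 24.4 in CD4T cells, but 10.03, 10.6 and 11.8 in CD8aaT and 9.62, 9.89 and 12.1 in CD8abT cells, so its average of 1.94 came from the NKT pair (3.84 against 0.04). Its 3 dimmer probe sets averaged 0.40, 0.23 and -0.12, and the first of them was called. Ifng gave 2.62 and 0.21, and Tnfsf11, which encodes RANKL, 0.14 and 1.44. Of 14 cytokines 4 were higher and 0 moved alike. Of 9 effector chemokine receptors 3 were higher and 0 moved alike. Cxcr3, the receptor for interferon-induced chemokines, gave 2.56 and 1.34, and Ccr2 gave 2.64 and 0.18.

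Of 29 adhesion, migration and memory-associated genes, 9 rose and 0 fell, and 2 moved alike. These were S100a6 (0.62 ± 0.13) and S100a10 (0.61 ± 0.08), calcium-binding proteins of the cell cortex; another probe set of S100a10 averaged -0.08 and was not called. Ahnak, a large scaffold that binds S100a10, rose in both pairs with 0.87 and 2.24, and the pairs differed. Its partner Anxa2 gave 0.12 and 1.64, whereas Anxa1 gave 2.73 and -0.11. Icam1 likewise came from the NKT pair, 2.32 against 0.18. Itgal and Itgb2, which together make LFA-1, averaged 0.35 and 0.58.

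The remaining T cell programs had 1 or 2 calls each, beside 3.21% of all probe sets called higher. Lists this short have too few members to tell such counts from that share. Of 24 cell cycle genes 1 was higher, Ccnd2, cyclin D2, at 0.49 ± 0.08, and the proliferation gene Mki67 averaged -0.08 and did not pass. Of 12 apoptosis regulators 1 was higher, Bcl2l11, which encodes BIM, with 0.31 in NKT and 1.24 in CD8aaT by its brightest probe set; its other 2 averaged -0.08 and -0.07 and were not called. Of 18 heat shock and chaperone genes 2 rose and moved alike. Hspa5, the chaperone BiP of the endoplasmic reticulum, averaged 1.04 ± 0.14 (SE; limma, adjusted p = 0.0033), and Xbp1, a transcription factor of the unfolded protein response, 0.90 ± 0.12 (SE; limma, adjusted p = 0.0033). The same-numbered NKT differences of Hspa5 were 1.71, 0.91 and 0.88, largest in replicate 1, where the CD4T array had the 18S signal of 1326, and the part of RNA quality in them was not tested gene by gene. None of these was called without the replicate block except Bcl2l11.

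Markers of other cell types were read beside the T cell genes, and none of their members was at 0 on any array. Summed over 17 macrophage and monocyte markers, intensity ranged from 1477 to 1554 in NKT against 1028 to 1178 in CD4T, and from 584 to 612 in CD8aaT against 634 to 676 in CD8abT. For 16 B cell markers it was 3846 to 6026 in NKT against 2545 to 4030 in CD4T, and 1014 to 1696 in CD8aaT against 899 to 1515 in CD8abT. Called members were Lyz2, Mpeg1 and Ctsb of the macrophage list and Cd72, H2-Aa, H2-Ab1 and H2-Eb1 of the B cell list, and none of these 7 moved alike. Of 13 granulocyte and mast cell markers and of 8 dendritic cell markers 0 were called, 1 of 8 erythroid and platelet markers was higher (Car2), and 1 of 18 stromal markers (Vcam1). Their part in the averages was not tested.

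Some genes differed between the pairs by the test. Opposite signs with all 3 same-numbered differences each way were found for 110 probe sets among those called for the pair difference. Of these, 48 were higher in NKT cells and 62 higher in CD8aaT cells. This did not ask for a call in either pair alone. Cd9, a tetraspanin, read 104, 73.8 and 68.1 in NKT and 152, 201 and 221 in CD4T cells, but 218, 137 and 151 in CD8aaT and 56.4, 44.2 and 51.2 in CD8abT cells. Its pair difference was -2.95 ± 0.27 (SE; limma, adjusted p = 0.00084). Both Cd9 pairs were free of overlap, in opposite directions.

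A further 85 called probe sets had the same sign in both pairs and unequal size, 65 higher and 20 lower. Trgv1, a T cell receptor gamma variable segment, was at 1352, 1207 and 1155 in NKT and 72.5, 79.8 and 87.5 in CD4T cells, and at 3258, 3477 and 2895 in CD8aaT and 2678, 2961 and 2061 in CD8abT cells. Both RTOC groups were bright, and probe sets of gamma segments can bind more than 1 segment. Cd160, a receptor of natural killer and innate-like T cells, gave 3.26 and 0.90, with CD8abT replicate 3 within the CD8aaT range. Actn1, an actin crosslinker, fell to 180, 148 and 135 in NKT from 1470, 1622 and 1578 in CD4T cells, and gave -0.32 in the CD8 pair. The dimmest probe set of Actn1 gave -0.08 and -0.17 and was not called in the average. The largest average rise of all probe sets, 3.08, belonged to a probe set with no gene named here.

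**Figure D5:**
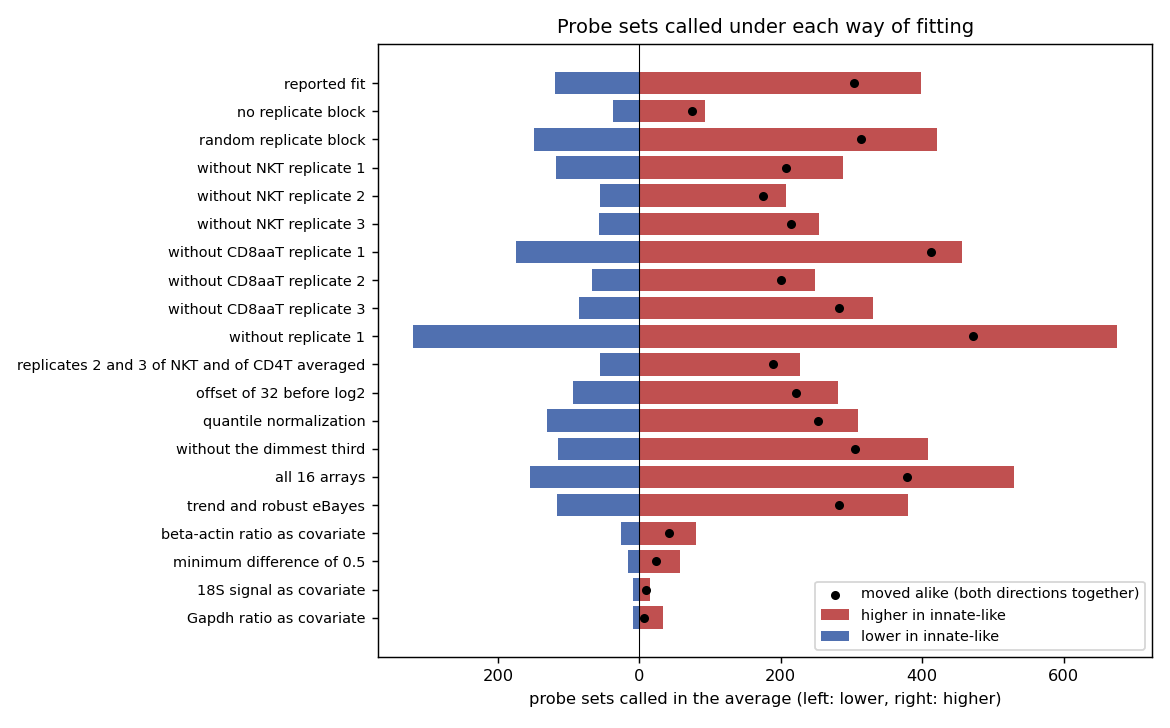
Number of probe sets called in the average as higher (red, right) and lower (blue, left), with a black point at the number that moved alike, for the reported fit and 19 alternatives. The reported fit has 399 and 119, the fit without the replicate block 93 and 37, and the fit with the 18S signal as a covariate 15 and 9.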

How the data were processed

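Per the labels' protocols, RNA of sorted cells was extracted with TRIZOL, amplified and made into biotinylated cRNA. The authors deposited 1 intensity per probe set and array on a linear scale, made with RMA per the submitters' processing notes. The RMA version, its settings and the arrays normalized as 1 set are not given in the sources used. Array medians were 49.6 to 54.1 in the spleen groups and 30.4 to 31.8 in the RTOC groups, so levels were compared only within a pair. RMA compresses differences of dim probe sets, a level does not show detection, and precision is limited by how few arrays there are. The 66 control probe sets were left out, which leaves 12422; 10833 have 1 gene symbol, 396 several and 1193 none. Probe sets of near-identical genes, such as tubulins, MHC and Ly49 families, can bind more than 1 transcript.

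Log2 of the intensities was fitted with limma 3.58.1 in R 4.3.3 (lmFit, eBayes, two-sided, 4 residual degrees of freedom) over the 12 arrays with the replicate number within each pair as a block, with Benjamini-Hochberg adjustment of each contrast over all 12422. The labels do not say what a number marks, and the arrays were taken as paired because deviations from group means correlated at 0.76, 0.65 and 0.67 for same-numbered NKT and CD4T arrays and 0.64, 0.60 and 0.66 for CD8aaT and CD8abT. NKT 2 with CD4T 3 gave 0.57 and NKT 3 with CD4T 2 gave 0.67, so in this pair numbers 2 and 3 cannot be told apart. In NKT and CD4T, replicates 2 and 3 are closely alike (SD of the log2 difference 0.126 and 0.162, against 0.383 to 0.634 with replicate 1), and p-values are too small if they are not independent. The fit for the average was run on simulated data with 200 changed probe sets of 12422. It recovered 92.8% of changes of size 1 and 100% of size 2 (log2), with 6 false calls. The simulated errors were independent and normal, and the changes were equal in both pairs. The simulation therefore does not cover replicates that are not independent or shifts in RNA quality, and the alike rule was not scored.

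Named genes are the 15 per direction with the largest smaller pair difference among those that moved alike with 1 gene symbol (no Gm, Rik or locus names, 1 probe set per gene, gate genes left out), up to 4 called members per list by size, genes called between the pairs (up to 6 per direction with opposite signs by size of that difference, up to 4 with equal sign by size of the average), the markers Klrd1, Ccl5 and Id2, and gate genes; others were chosen after their values were seen. Lists use the brightest probe set per gene and have no test. The members, rules and 24 lists were chosen with earlier results of these data known. The 19 alternatives changed the block, replicates, scale, normalization, dim filter, arrays fitted, spread, minimum difference or an RNA quality covariate; 2 of them, the 18S and Gapdh covariates, and 3 gene lists of the closing section were added after seeing the data.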

Additional observations from a re-analysis of the deposited data

Results flagged for a closer look

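For 20 genes the test of the difference between the pairs, NKT minus CD4T less CD8aaT minus CD8abT, was called (limma, Benjamini-Hochberg adjusted p under 0.05). The values below are that difference on the log2 scale, and no explanation was tested for any of them. They come from the 269 probe sets called: 12 with opposite signs in the pairs, taken by size of that difference, and 8 with the same sign, also called in the average and taken by size of the average. The sizes are a description, and other called genes, such as Il4 at 3.80, are not among the 20.

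In 6 genes NKT cells were higher than CD4T cells and CD8aaT cells lower than CD8abT cells. The 3 of 3 same-numbered differences each way were the rule that chose them. In the NKT pair alone 5 of them were called, and in the CD8 pair alone 0. Their CD8 differences ranged from -0.14 (Aqp9) to -0.94 (Adgrg3), so a fall in CD8aaT cells was not shown for any of them. Lyz2, lysozyme, differed by 2.79 ± 0.23 (SE), with 2.08 in the NKT pair and -0.71 in the CD8 pair. Aqp9, a water and glycerol channel, differed by 2.70 ± 0.41, and Ccr9, the receptor for homing to the gut, by 2.22 ± 0.20. Ccr9 read 67.5, 86.4 and 85.9 in NKT and 22.3, 25.4 and 25.9 in CD4T cells, and 45.4, 69.2 and 39.9 in CD8aaT and 49.5, 102 and 74 in CD8abT cells. H2-Eb1, an MHC class II chain, differed by 1.5 ± 0.16, Adgrg3, an adhesion G protein-coupled receptor, by 1.39 ± 0.28, and Tnk2, a tyrosine kinase, by 1.32 ± 0.24. Lyz2 and H2-Eb1 are on the lists of macrophage and B cell markers, whose summed intensities were higher in NKT than in CD4T arrays for the macrophage list (1477 to 1554 against 1028 to 1178), and for the B cell list overlapped (3846 to 6026 against 2545 to 4030). These sums include Lyz2 and H2-Eb1 themselves. Of the 17 macrophage markers, 7 averaged above 0 and 10 below, with list medians of 0.15 in the NKT pair and -0.16 in the CD8 pair. Of the 16 B cell markers, 13 averaged above 0 and 3 below, with medians of 0.26 and -0.02.

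In 6 others the signs were the reverse. Of these, 4 were called in the NKT pair, 3 in the CD8 pair and 2 in both. Cd9 differed by -2.95 ± 0.27, Trim59, a tripartite motif protein, by -2.75 ± 0.32, and Car2, carbonic anhydrase 2, by -2.69 ± 0.23. Car2 came from the CD8 pair, at 88.4, 118 and 182 in CD8aaT and 19.97, 22 and 21.1 in CD8abT cells, against -0.13 in the NKT pair. Itga4, the integrin alpha 4 chain, differed by -2.55 ± 0.43, Klhdc2, a kelch protein of ubiquitin ligases, by -2.32 ± 0.40, and Acss1, a mitochondrial acetyl-CoA synthetase, by -2.01 ± 0.29. Replicate 1 of CD4T stood apart from replicates 2 and 3 in Trim59, Itga4, Klhdc2 and Acss1, for example 68.6, 188 and 204 in Klhdc2.

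In 8 genes both pairs had the same sign and the sizes differed. Trgv4 differed by 3.42 ± 0.29 and Trgv1 by 3.62 ± 0.17, and both were bright on every RTOC array. Fgl2, a fibrinogen-like protein of activated T cells, differed by 2.18 ± 0.23, with 3.25 in the NKT pair and 1.06 in the CD8 pair, and Cd160 by 2.36 ± 0.31. Among genes that fell, Actn1 differed by -3.02 ± 0.23, Tdrp by -2.56 ± 0.35, Emp3, an epithelial membrane protein family member, by -1.22 ± 0.20, and Dgka, a diacylglycerol kinase that damps T cell receptor signals, by -0.97 ± 0.20. Dimmer probe sets of Lyz2 and Fgl2 gave differences between the pairs of 0.38 and 0.18 that were not called. In the NKT and CD8 pairs, dimmer probe sets gave -0.43 and -0.25 for Emp3 and -0.01 and 0.29 for Tdrp. Klhdc2 gave 0.07 and -0.04, and the dimmest of Actn1 -0.08 and -0.17. None of these was called in the average. Another Actn1 probe set, at -2.78 and -0.12, was called there. Dimmer probe sets of Itga4 kept opposite signs, at -0.59 and 0.48 and at -0.64 and 0.21. Of the 20, the 7 called under all 19 alternatives were Lyz2, Ccr9, Car2, Trgv4, Fgl2, Trgv1 and Actn1, and none of the 20 reversed its sign. For the genes with opposite signs in the pairs, the rule that chose them left only the covariates and quantile normalization able to reverse it.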

How the results depend on the processing

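Of the 30 leading genes that moved alike, none reversed under 19 alternatives. The rule asked for 1 sign in every same-numbered difference, so only the covariates and quantile normalization could have reversed an average. Klrd1, Tyrobp and Socs3 stayed called in all 19, and 27 of the 30 lost the call in 1 or more, most often with a covariate. The reported counts are 399 higher and 119 lower, with 237 and 67 moving alike. Without the replicate block these were 93, 37, 48 and 26; with a random replicate block, 421, 149, 235 and 78. With replicates 2 and 3 of NKT and of CD4T averaged they were 227, 55, 152 and 37; with a minimum difference of 0.5, 57, 16, 19 and 4; with the beta-actin ratio, 80, 26, 28 and 14. With covariates chosen after seeing the data they were 15, 9, 5 and 4 (18S signal) and 33, 9, 5 and 2 (Gapdh ratio). Leaving out an NKT or CD8aaT replicate always left out its same-numbered conventional array as well. These fits gave 208 to 456 higher, 56 to 174 lower, 138 to 295 higher alike and 37 to 117 lower alike. The counts moved by over 1.5 times without NKT replicates 2 or 3 or CD8aaT replicate 2, and the alike counts also without NKT replicate 1 (155 higher) or CD8aaT replicate 1 (117 lower). Without replicate 1 of all 4 groups they were 676, 320, 316 and 156. The offset, quantile normalization, dim filter, all 16 arrays and the trend and robust settings moved none of these counts by over 1.5 times. The causes were not tested.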

Other observations

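Genes of protein folding and export in the endoplasmic reticulum, a list drawn up after seeing the values, rose in part. Of 39 measured, 14 were called higher and 0 lower, 13 moved alike, and the median average was 0.40, with 0.47 in the NKT pair and 0.23 in the CD8 pair, beside -0.04 over all probe sets. Ero1a, an oxidase that keeps disulfide bonds forming, averaged 0.99 ± 0.12 (SE; limma, adjusted p = 0.0016), and its relative Ero1b 0.61 ± 0.11. Bcap31, a sorting protein for membrane cargo, averaged 0.67 ± 0.10, and Sec61b, a subunit of the translocation channel, 0.47 ± 0.07. Dnajb9, a cochaperone of BiP, averaged 0.60 ± 0.11, and Herpud1, a part of the degradation machinery, 0.52 ± 0.09. Because the list was chosen on these values, its count is a description. The part of RNA quality in it was not tested. In several members the NKT difference was largest in replicate 1, whose CD4T array had the 18S signal of 1326. It was 1.46, 0.39 and 0.27 in replicates 1 to 3 for Rcn1, a calcium-binding protein of this compartment, and 1.23, 0.37 and 0.29 for Tram1, a translocation protein. Other called members were smallest in replicate 1, such as Pdia6 (0.18, 0.64 and 0.61) and Lman1 (0.23, 0.43 and 0.54). With alternatives also run after seeing the values, 12 were called higher without NKT replicate 1 and 6 without NKT replicate 2. Counts were 16 without CD8aaT replicate 1 and 7 without CD8aaT replicate 2. They were 19 without replicate 1 of all 4 groups and 1 without the replicate block. With the 18S signal, the Gapdh ratio or the beta-actin ratio as a covariate 0 were called, at medians of 0.19, 0.21 and 0.25. Dimmer probe sets of Ero1a and Dnajb9 averaged 0.28 and 0.01 and were not called.

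On the same footing, 4 of 18 genes of MHC class I and peptide loading rose and all 4 moved alike. These were H2-Q5 (0.56 ± 0.08), H2-Q4 (0.65 ± 0.12), H2-D1 (0.45 ± 0.09) and H2-K1 (0.39 ± 0.08). Their probe sets can bind more than 1 class I transcript, and the dimmest of H2-K1 averaged 0.02 and was not called. In the NKT pair alone H2-D1 (0.19) and H2-K1 (0.21) were not called, and H2-Q4 was called in neither pair. Without the replicate block, with a minimum difference of 0.5 or with any RNA quality covariate, 0 of the 18 were called. Leaving out 1 replicate of a pair gave 2 to 4. Of 11 TNF receptor family members, by the brightest probe set of each, 2 rose, Tnfrsf18 and Tnfrsf1b, the second TNF receptor, at 0.69 ± 0.14, and the list's median was -0.07. Tnfrsf9, which encodes 4-1BB, averaged -0.07 by that probe set, while a dimmer one averaged 0.40 (limma, adjusted p = 0.015) and moved alike.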
